A study of Danio rerio with 2 samples.

Results

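Vitellogenins are the yolk precursor proteins of egg-laying vertebrates, and the very low density lipoprotein (VLDL) receptor and its relatives are the cell surface proteins that carry such lipoproteins into cells. The members described here are the rows of a table of 24539 zebrafish genes whose symbol is vtg1 to vtg7, vldlr or ldlra, without regard to case. Of these 9 symbols, 8 were found, each on 1 row: 6 of the 7 vitellogenin genes and both receptor genes. vtg2 was not matched to a row and is not analysed here.

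RNA was sequenced from the testes and the ovaries of adult zebrafish labelled wild type. Each organ gave 1 library, made from a pool of 3 adults. The study's title names sex-biased genes and pathways as its subject. The values are FPKM, fragments scaled to gene length and to the total of mapped fragments, so that they can be compared between genes, and each is a share of its own library. No read counts are in the files used here, the depth of the libraries is unknown, and no difference between the organs has a replicate check or a p-value. The smallest printed value, 0.01 FPKM, was read as a floor and no fold is given against it; in testis 430 genes had this value and in ovary 3540. In whole-organ RNA, fewer cells of a type and less RNA per cell cannot be told apart.

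In a maturing female fish, oestrogen from the ovary acts on the liver, which makes vitellogenin and releases it into the blood. The growing oocyte takes the protein up from the blood by receptors that gather in clathrin-coated pits, and lysosomal proteases then cut it into the yolk proteins that feed the embryo. In birds and fish the oocyte receptor for vitellogenin is a form of the VLDL receptor. The yolk protein genes and the receptor genes are thus known to act in different organs of the same animal.

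The organ labels were checked against defining markers of gonadal cells. All 8 oocyte markers were higher in ovary, with 1.27 to 9.86 FPKM in testis and 26.6 to 4862 FPKM in ovary. All 6 markers of male germ cells were higher in testis, with 36.4 to 473 FPKM there and 0.07 to 9.40 FPKM in ovary. The 3 matched Sertoli cell markers (gsdf, amh and DMRT1) lay at 160 to 835 FPKM in testis and 0.80 to 6.62 FPKM in ovary. Of 4 matched follicle cell markers, aromatase (CYP19A1) was listed at the floor in testis and at 2.04 FPKM in ovary, and the other 3 were higher in testis. Of macrophage, endothelial and erythrocyte markers, 5, 5 and 4 were matched, and their summed levels were 143, 25.6 and 216 FPKM in testis, against 8.35, 3.33 and 14.6 FPKM in ovary; none was at the floor in either library. What part these cells have in the receptor values below was not tested. Calls follow a rule of size: a difference of at least 2-fold in FPKM + 1, and a minimum of 1 FPKM in one library or the other. Of the 19053 genes that met this minimum, the rule put 45.1% higher in testis and 16.6% higher in ovary; with the median log2 ratio of these genes centred on 0 the shares were 25.1% and 30.3%, and with a trimmed mean scaling they were 28.9% and 33.5% of the 17229 genes that met the minimum after that scaling. The log2(FPKM + 1) scale understates the ratio of low genes.

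None of the vitellogenin genes reached 1 FPKM in ovary, the organ whose oocytes store their product. Their values ran from 0.10 to 4.90 FPKM in testis and from 0.01 to 0.41 FPKM in ovary. In testis 25.4% of all genes lay under 1 FPKM, and in ovary 48.1% did. All 6 printed values were higher in testis than in ovary, but only vtg1 passed the rule. The other 5 stayed below 1 FPKM in both libraries and were not classed. The median log2 ratio of all genes that reached 1 FPKM was itself 0.80. With that median set to 0, the log2 ratios of these 5 were negative, from -0.68 (vtg7) to -0.20 (vtg5). That sign was fixed in advance, as testis values this low give a log2 ratio under 0.80 whatever the ovary value. This setting therefore says nothing about their direction. The trimmed mean scales FPKM before 1 is added. With it the log2 ratio of vtg3 was -0.07 and those of the others stayed positive, so only vtg3 changed direction.

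The highest vitellogenin level of either library belonged to vtg1 (ENSDARG00000092233). It stood at 4.90 FPKM in testis and 0.11 FPKM in ovary, a 44.5-fold ratio and a log2 ratio of testis to ovary of 2.41 on the FPKM + 1 scale. On the FPKM + 1 scale, 3012 of the genes that reached 1 FPKM had a higher ratio than vtg1. That scale caps the ratio of a gene at so low a level, so this rank does not place the 44.5-fold ratio. The testis level of vtg1 was near the middle of that library, with 50.8% of genes below it. The call was lost with a pseudocount of 5 (log2 ratio 0.95) and with a minimum of 5 FPKM.

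vtg3 (ENSDARG00000016448), which encodes the vitellogenin form that lacks phosvitin, the serine-rich part of the protein, had a smaller difference between the libraries. It read 0.67 FPKM in testis and 0.41 FPKM in ovary, a 1.63-fold ratio. This was the smallest ratio among vtg1, vtg3 and vtg5, the vitellogenin members with no value at the floor. In testis vtg1 was 7.31 times as high as vtg3, whereas in ovary it was 0.268 times as high. Thus vtg3 supplied 68.3% of the summed vitellogenin signal of the ovary library, while vtg1 supplied 71.7% of that of the testis library. These shares rest on a summed ovary level of 0.60 FPKM, and without counts their error is unknown.

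The remaining genes encode further vitellogenins of the phosvitin-bearing kind. vtg5 (ENSDARG00000092126) was at 0.59 FPKM in testis and 0.05 FPKM in ovary, an 11.8-fold ratio. vtg4 read 0.30, vtg6 0.27 and vtg7 0.10 FPKM in testis, and all 3 were at the floor of 0.01 FPKM in ovary. In testis the order was thus vtg1, vtg3, vtg5, vtg4, vtg6 and vtg7, and in ovary vtg3, vtg1 and vtg5, followed by the 3 genes at the floor. With 1 library per organ, it is not known which neighbours in these orders differ beyond the spread between samples.

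Several of these genes are copies that lie side by side. In the RefSeq gene table of the assembly GRCz12tu, which is not the build of the values and was used for gene order alone, vtg4, vtg6, vtg7, vtg2 and vtg8 follow each other with no other protein-coding gene between them, and vtg5 is on the same chromosome. vtg3 is on another chromosome, and vtg1 was not matched in that table. Reads may have been divided among copies of near-identical sequence in a way that the table does not record. A division among the 6 measured genes would not change their summed fragments, but could change their summed FPKM where gene lengths differ. One that involved vtg2 or vtg8 could change both. The sum of the 6 FPKM values was 6.83 in testis and 0.60 in ovary, an 11.4-fold ratio with a log2 ratio of 2.29. Without vtg1 the sum was 1.93 FPKM in testis and 0.49 FPKM in ovary. vtg8, which carries a vitellogenin symbol but is not among the members, was at 0.02 FPKM in both libraries.

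**Figure D1:**
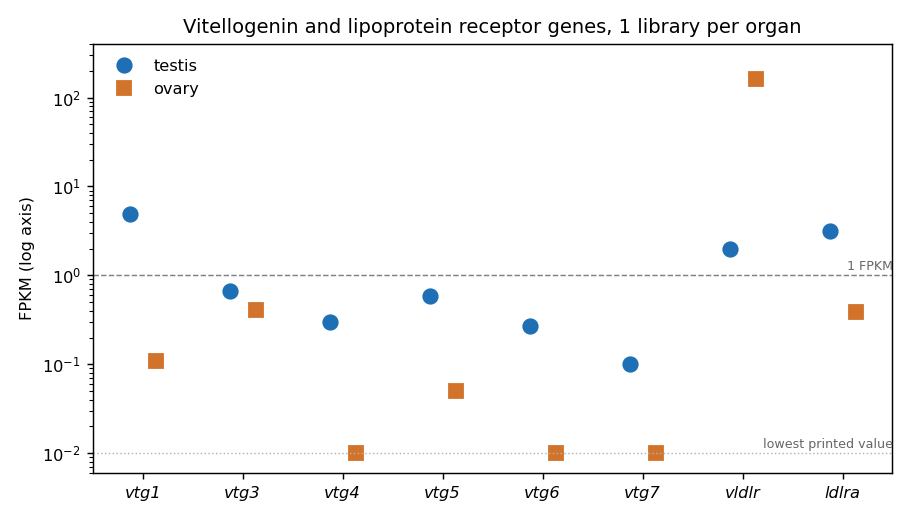
FPKM (log axis) of the 8 measured members in the testis library (circles) and the ovary library (squares), 1 library per organ and no error bars; the dashed line marks 1 FPKM and the dotted line the lowest printed value. The ovary values of the 6 vitellogenin genes lie at 0.41 FPKM or lower, and vldlr is the one member with its higher value in ovary, at 161 FPKM.

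Genes of the liver, the usual source of vitellogenin, were also higher in the testis library. Of 26 liver markers written in the list, 25 were matched and 19 of these reached 1 FPKM. Of the 19, 17 were higher in testis (89.5%, against 45.1% of all genes), with none called towards ovary. All 19 reached 1 FPKM in testis, but only 3 genes of the list did in ovary. A gene that met the minimum in testis alone has its higher value there by that rule, so this count is no independent support for the direction. With the median of all genes at 0, 11 of the 19 were called towards testis, against 25.1% of all genes. With the trimmed mean 12 were, against 28.9% of all genes, but fewer than 19 met the minimum after that scaling. The summed macrophage, endothelial and erythrocyte markers given above were higher in testis as well, so this direction was not particular to liver markers. The summed level of the liver markers was 148 FPKM in testis and 10.4 FPKM in ovary, a 14.3-fold ratio, beside 11.4-fold for the vitellogenin sum. The median liver marker ratio was 13.1-fold over the 22 genes with no value at the floor, and 5 of the 22 had a ratio above that of vtg1.

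The 4 most abundant liver markers were kng1, fabp10a, apoa2 and tfa. The hepatocyte fatty acid binding protein gene fabp10a read 19.7 FPKM in testis and 0.39 FPKM in ovary. apoa2, an apolipoprotein of high density lipoprotein, read 15.5 FPKM in testis and 0.15 FPKM in ovary, and tfa, the iron carrier transferrin, 10.7 FPKM in testis and 1.09 FPKM in ovary. kng1, for the plasma protein kininogen, was the most abundant of the list at 42.3 FPKM in testis and 3.55 FPKM in ovary. The markers serpina1l and uox were listed at the floor in ovary, and no marker of the list was at the floor in testis. The part of liver RNA in the vitellogenin values was not tested. Markers of enterocytes were below 1 FPKM in both libraries for all 4 matched genes.

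Several other genes linked to vitellogenin were examined. In the list of oestrogen response 6 of 10 genes were matched and 5 reached 1 FPKM. Of these, 2 were called towards testis (against 45.1% of all genes), 2 towards ovary (against 16.6%) and 1 neither way. Both rescalings left 0 towards testis and 3 towards ovary, where 30.3% and 33.5% of all genes were called towards ovary. With the trimmed mean fewer than 5 genes met the minimum. ESR1, the oestrogen receptor that drives vitellogenin genes in liver, was at 1.52 FPKM in testis and 0.11 FPKM in ovary. nots, a cathepsin D-like protease known from the liver of female zebrafish, read 1.35 FPKM in testis and 0.10 FPKM in ovary. Apolipoprotein B and the microsomal transfer protein belong to the same family of large lipid transfer proteins as vitellogenin. The apolipoprotein B genes apobb.1 and apobb.2 read 0.35 and 0.10 FPKM in testis, against 0.02 and 0.01 FPKM in ovary. The transfer protein gene MTTP was at 1.50 FPKM in testis and 0.44 FPKM in ovary, a difference within 2-fold on the FPKM + 1 scale.

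The receptor gene vldlr (ENSDARG00000006257, written VLDLR in the symbol table) had the opposite pattern to vtg1, the vitellogenin gene that passed the rule. vldlr stood at 1.98 FPKM in testis and 161 FPKM in ovary. This was an 81.4-fold ratio towards ovary and a log2 ratio of testis to ovary of -5.77. In ovary vldlr was the gene of rank 497, above 98.0% of all genes, and in testis it had rank 15818. Of the 19053 genes that reached 1 FPKM, 158 had a ratio further towards ovary. Its call held under all 8 alternative settings, with log2 ratios from -6.56 to -4.57.

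The testis value of vldlr can be set beside those of the oocyte markers. The testis value of vldlr was 1.23% of its ovary value. For the 8 oocyte markers the same quantity ran from 0.0977% (h1m) to 4.77% (GDF9), with a median of 0.967%, so vldlr lay inside their range. Whether the small testis signal came from the same source as that of the oocyte markers was not tested.

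ldlra (ENSDARG00000029476), the zebrafish low density lipoprotein (LDL) receptor gene of the cholesterol pathway, went the other way. It read 3.18 FPKM in testis and 0.39 FPKM in ovary, an 8.15-fold ratio and a log2 ratio of 1.59. In testis vldlr and ldlra were thus close, with vldlr at 0.623 times ldlra, and in ovary vldlr was 413 times ldlra. The call of ldlra lies on the side of 45.1% of all genes, and it did not hold when the libraries were rescaled: the log2 ratio was 0.79 with the median ratio of all genes set to 0 and 0.91 with a trimmed mean of log ratios. vldlr and vtg1 kept their calls under both. The shifts that these rescalings take out are 0.80 and 0.98 on the log2 scale.

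**Figure D2:**
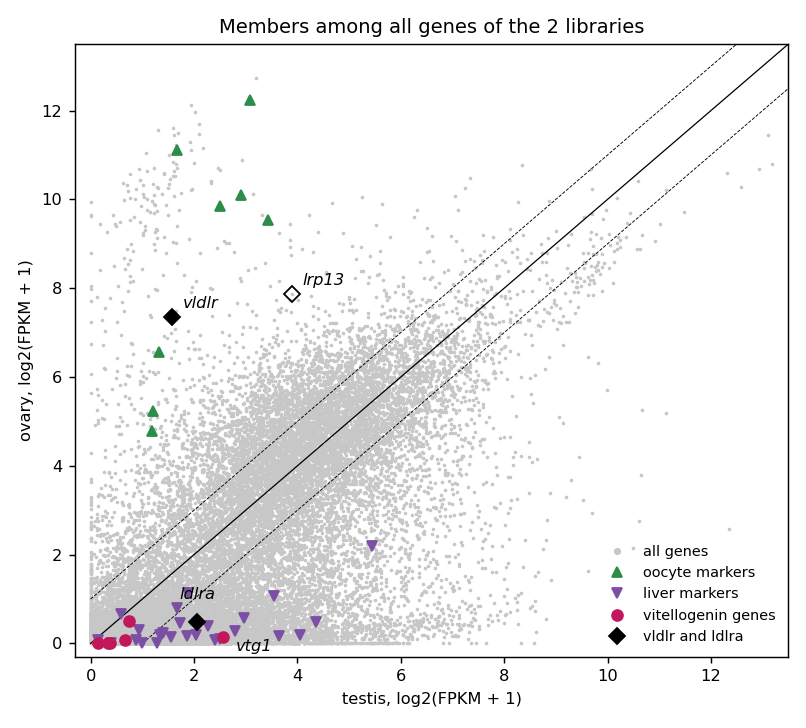
Each point is 1 gene, with its testis level on the x axis and its ovary level on the y axis, both as log2(FPKM + 1); the solid line marks equal levels and the dashed lines a 2-fold difference, and lrp13 (open diamond) is not a member. vldlr lies among the oocyte markers (upward triangles), while ldlra and the vitellogenin genes lie along the bottom edge with the liver markers (downward triangles).

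Among the other genes of the LDL receptor family, lrp13 alone was called higher in ovary. Of 22 symbols written for the family beside the members, 15 were matched and 14 reached 1 FPKM. Of these 14, 6 were higher in testis (42.9%), 1 was higher in ovary (7.14%) and 7 were within 2-fold, against 45.1% and 16.6% of all genes. The median log2 ratio of the 14 was 0.91, against 0.80 over all genes that reached 1 FPKM. The count towards testis depended on the scale: it was 2 with the median of all genes set to 0 and 1 with the trimmed mean. Fewer than 14 genes met the minimum after the trimmed mean scaling. With the median of all genes set to 0, the median of the 14 was 0.12.

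lrp13 (ENSDARG00000023479) encodes an LDL receptor relative that in striped bass and white perch was found in the ovary as a receptor for vitellogenin. It had the highest level of the family, at 13.9 FPKM in testis and 234 FPKM in ovary, a 16.8-fold ratio towards ovary and a log2 ratio of -3.98. In ovary it was 1.45 times as high as vldlr, and in testis 7.02 times as high. Its testis value was 5.94% of its ovary value, above the range of the 8 oocyte markers.

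The closest relative of ldlra by name, ldlrb, was nearly equal in the 2 libraries, with 12.1 FPKM in testis and 13.3 FPKM in ovary. In ovary vldlr was thus 12.1 times and lrp13 17.6 times as high as ldlrb. A further 3 family genes were above 10 FPKM in both organs and differed by less than 2-fold. They were LRP6, a co-receptor of Wnt signalling (25.5 FPKM in testis, 14.4 FPKM in ovary), lrp10 (23.2 and 17.6 FPKM in the same order) and the sorting receptor gene SORL1 (11.7 and 10.1 FPKM).

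The 6 family genes called higher in testis were mostly low in ovary. ldlrad3 had the largest ratio, with 12.8 FPKM in testis and 0.51 FPKM in ovary. LRP12 read 13.9 FPKM in testis and 4.76 FPKM in ovary, and LRP5, the other Wnt co-receptor of the family, 8.22 FPKM in testis and 1.64 FPKM in ovary. LRP3 (2.83 FPKM in testis, 0.86 FPKM in ovary), lrp1ba (2.33 and 0.35 FPKM) and lrp11 (1.64 and 0.09 FPKM) completed the group. LRP3, with a log2 ratio of 1.04, lay just inside the rule.

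LRP2, the large endocytic receptor called megalin, lay just outside it at 0.97, with 2.44 FPKM in testis and 0.76 FPKM in ovary. LRP8, the apolipoprotein E receptor that is the nearest relative of the VLDL receptor in mammals, was low in both organs, at 1.24 FPKM in testis and 0.30 FPKM in ovary. LDLRAD2 read 1.00 FPKM in testis and 0.10 FPKM in ovary. lrp2b was close to the floor in both libraries, at 0.03 FPKM in testis and 0.04 FPKM in ovary.

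**Figure D3:**
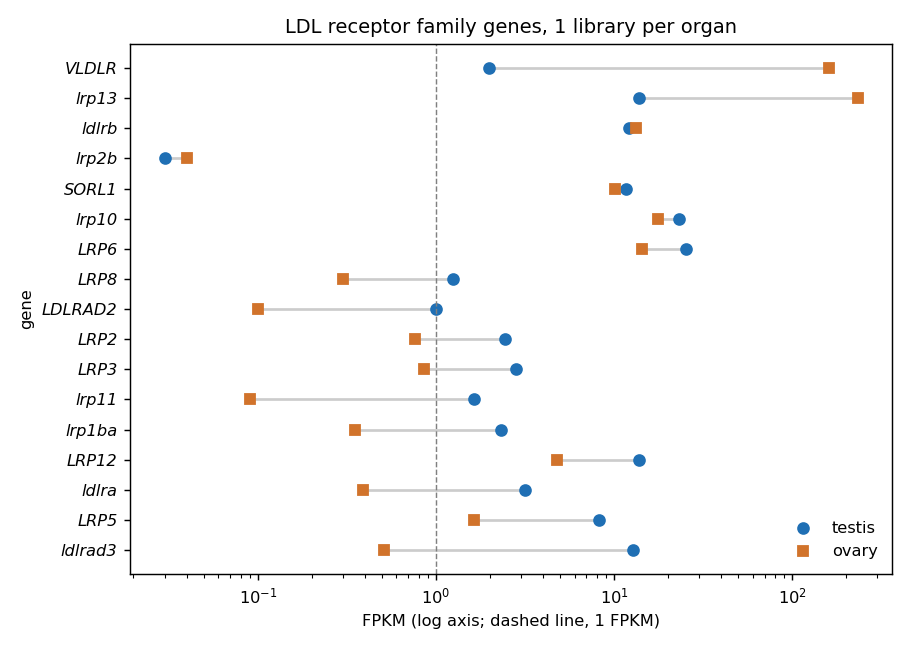
FPKM (log axis) of vldlr, ldlra and the 15 other matched genes of the LDL receptor family in testis (circles) and ovary (squares), ordered from the lowest log2 ratio of testis to ovary at the top to the highest at the bottom; the dashed line marks 1 FPKM. VLDLR and lrp13 are the only genes shown with more than 100 FPKM in ovary, and the highest testis value shown is 25.5 FPKM.

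The chaperones and adaptors that serve these receptors were called in shares near those of all genes. Of 15 written, 8 were matched and all reached 1 FPKM; 3 were higher in testis (37.5%, against 45.1% of all genes), 2 of 8 in ovary (against 16.6%) and 3 within 2-fold. Their median log2 ratio was 0.46, and it turned negative with the median of all genes at 0 (-0.34) and with the trimmed mean (-1.31). The trimmed mean value covers fewer than 8 genes, as the minimum was applied after that scaling. MESD, a chaperone for receptors of the family, was called higher in ovary, at 37.9 FPKM in testis and 87.6 FPKM in ovary. ldlrap1a, whose product links the tails of LDL receptors to clathrin, was called higher in ovary as well, at 15.5 FPKM in testis and 56.1 FPKM in ovary. LRPAP1, which keeps newly made receptors from binding their ligands too early, read 23.9 FPKM in testis and 43.7 FPKM in ovary, within 2-fold, though both rescalings put it past the rule towards ovary.

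The largest ratio of the list was that of dab1b. Its product is of the Dab adaptor type, which in mammals binds the tails of the VLDL receptor and LRP8, and it stood at 37.0 FPKM in testis and 0.07 FPKM in ovary. The endocytic adaptor gene NUMB followed, at 32.5 FPKM in testis and 2.53 FPKM in ovary. The adaptors were therefore not uniformly higher in the organ with the higher vldlr level.

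The clathrin machinery of endocytosis was similar in the 2 libraries as shares of the deposited totals. Of 28 genes written, 17 were matched and 16 reached 1 FPKM. Of the 16, 12 were within 2-fold, 4 were higher in testis and none passed the rule towards ovary. Among all 19053 genes that reached 1 FPKM, 7304 were within 2-fold, 45.1% were higher in testis and 16.6% higher in ovary. The median log2 ratio of the 16 was 0.32. The clathrin light chain gene CLTA read 214 FPKM in testis and 250.0 FPKM in ovary. The heavy chain gene cltca read 51.1 FPKM in testis and 86.1 FPKM in ovary, and the adaptor gene AP2A1 45.1 FPKM in testis and 71.7 FPKM in ovary. The second light chain gene, CLTB, was the exception with the largest ratio, at 15.1 FPKM in testis and 0.60 FPKM in ovary. On the scale with the median of all genes at 0 and on that of the trimmed mean, 5 and 6 clathrin genes passed the rule towards ovary. Among them were CLTA, cltca and AP2A1, and the list median turned negative (-0.48 and -0.63). Of all genes, 30.3% and 33.5% were called towards ovary on these scales.

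Other routes of lipid uptake held 2 genes whose ratios towards ovary lay between those of vldlr and lrp13. Of 24 genes written for lipid transfer and uptake, 16 were matched and 10 reached 1 FPKM; 5 were higher in testis, 3 in ovary and 2 within 2-fold, with a median log2 ratio of 1.04. The counts of 5 and 3 of 10 stand beside 45.1% and 16.6% of all genes. The median was 0.24 with that of all genes at 0 and 0.81 with the trimmed mean. It was 0.13 with a minimum of 5 FPKM and 0.52 with a pseudocount of 5, which left 2 genes called towards testis. Fewer than 10 genes met the minimum with the trimmed mean and with the minimum of 5 FPKM. SCARB1, the receptor for high density lipoprotein, stood at 20.2 FPKM in testis and 617 FPKM in ovary, a 30.6-fold ratio towards ovary. In ovary it was 3.83 times as high as vldlr and 2.64 times as high as lrp13. LIPG, the endothelial lipase gene, stood at 5.37 FPKM in testis and 123 FPKM in ovary, 22.9-fold. In the other direction LCAT, the plasma enzyme that esterifies cholesterol on lipoproteins, stood at 37.1 FPKM in testis and 0.08 FPKM in ovary.

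The lysosomal proteases held the 2 highest ovary levels of the receptor, uptake and protease lists. All 13 genes written were matched and 11 reached 1 FPKM. Of these, 4 were higher in ovary (36.4%, against 16.6% of all genes) and 3 in testis (27.3%, against 45.1%). The other 4 were within 2-fold, and the median log2 ratio of the 11 was -0.91. Both rescalings raised the ovary count to 7, CTSD included, where 30.3% and 33.5% of all genes were called towards ovary. The cathepsin S-type gene ctss2.1 read 8.91 FPKM in testis and 800 FPKM in ovary, an 89.8-fold ratio, close to that of vldlr. CTSB, for cathepsin B, read 89.9 FPKM in testis and 656 FPKM in ovary, and ctsla, for a cathepsin L, 125 FPKM in testis and 581 FPKM in ovary. CTSD, the gene of cathepsin D, a protease known to cut vitellogenin, was within 2-fold at 82.2 FPKM in testis and 112 FPKM in ovary. CTSK and CTSH were higher in testis, at 33.3 and 17.2 FPKM there and 2.44 and 1.18 FPKM in ovary.

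**Figure D4:**
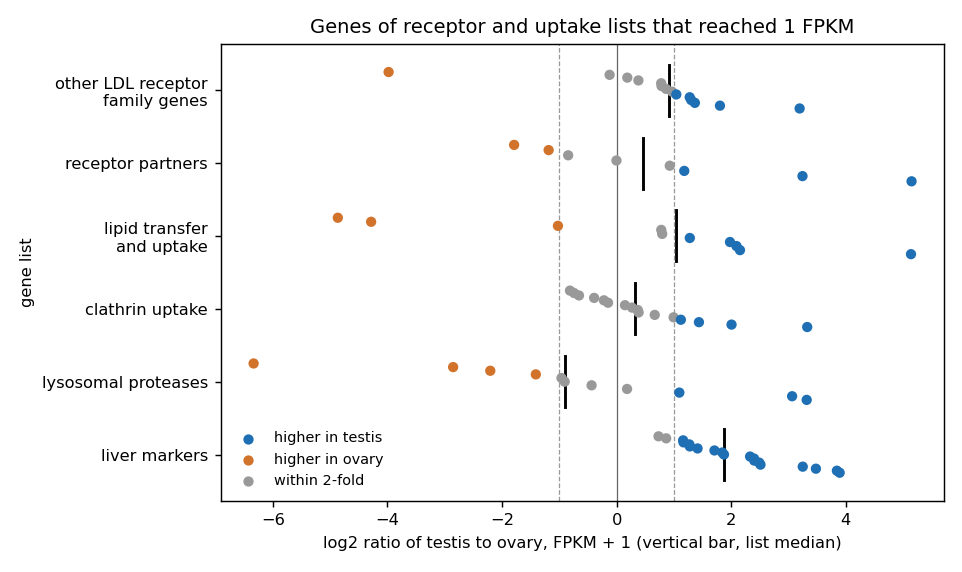
Log2 ratio of testis to ovary on the FPKM + 1 scale (x axis) for the genes of 6 lists that reached 1 FPKM; each point is 1 gene, coloured by its class, and the vertical bar is the list's median. Clathrin genes lie mostly between the dashed 2-fold lines, liver markers lie to the right with a median of 1.87, and lrp13 is the one ovary point of the receptor family list.

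The genes whose pair of levels came closest to those of the leading members were sought by the distance between pairs of log2(FPKM + 1) values, over the 2 libraries. Nearest to vldlr were mcm3l (2.15 FPKM in testis, 177 FPKM in ovary), the egg coat gene zp3f.2 (2.12 and 135 FPKM in the same order) and the helicase gene PIF1 (1.92 and 127 FPKM), at distances of 0.156, 0.259 and 0.348. In all, 6 genes with an informative symbol lay within a distance of 0.5 of vldlr. Nearest to vtg1 were CDC42EP3 (4.88 FPKM in testis, 0.11 FPKM in ovary), mamdc2b (4.93 and 0.10 FPKM) and DUSP2 (4.94 and 0.12 FPKM). Within 0.5 of vtg1 lay 839 such genes. The FPKM + 1 scale draws low values together, so genes near vtg1 on it can differ in their plain ratios. The 839 of vtg1 and the 6 of vldlr therefore do not show how common each ratio was.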

How the data were processed

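The values are FPKM as deposited by the authors, in a single table with a column for each organ, per the file headers. GRCz10 is the genome build in the submitters' processing notes, which also list RSEM, HISAT and Bowtie2; their versions, their settings and the use of strand are not given in the sources. Identifiers were named through a table of symbols (21881 of 24539 named). Genes of the lists were looked up by symbol in any case, then by a single RefSeq synonym, and a symbol with more than 1 identifier was dropped. Log2 ratios divide testis by ovary after 1 is added to both FPKM values. The class rule of the main setting and the trimmed mean shift were checked on simulated data, with changed genes well above the minimum. The classes under the alternative settings, and calls at low levels, were not checked in this way. With 1 library per organ no test was made. The members and lists were chosen with earlier results of these data known. Named genes are every measured member, the whole receptor family list and, of other lists, the 4 highest means and up to 2 largest ratios in each direction; MTTP, apobb.1, apobb.2, nots, serpina1l and uox were added after their values were seen. Protein and promoter sequences were not used here. Python 3.11.15, numpy 2.4.6 and pandas 2.3.3 were used.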

Additional observations from a re-analysis of the deposited data

How the results depend on the processing

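A result counts as kept here when its class, or for a count a value within 1.5 times, stayed as reported; with no replicates and no counts, no other error was available. The call of vldlr held under all 8 alternatives. The vitellogenin count towards testis (1 gene, vtg1) became 0 with a pseudocount of 5 and with a minimum of 5 FPKM. The count of members of the receptor pair higher in testis (1 gene, ldlra) became 0 with these 2 settings, with a 4-fold rule, after median centring of the log2 ratios of all genes and after trimmed mean scaling. Of the other receptor family genes, 6 were higher in testis as reported, 1 with a pseudocount of 5, 3 with a minimum of 5 FPKM, 1 with a 4-fold rule, 2 after median centring and 1 after trimmed mean scaling, and their median log2 ratio of 0.91 was 1.59 with a pseudocount of 0.1, 0.38 with a pseudocount of 5, 0.12 after median centring and 0.35 after trimmed mean scaling. Fewer of the receptor family genes met the minimum after trimmed mean scaling, as it was applied to the scaled values. No value changed sign among the called members. The cause of these moves was not tested. No paired analysis was possible because each organ has 1 library. The unknown depth limits the low values most: the ovary levels of the vitellogenin genes lie within 0.41 FPKM of 0, on a scale printed in steps of 0.01 FPKM.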

Other observations

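Some receptor family symbols are carried by 2 identifiers each and were left out of the counts. For LRP1, which encodes a large endocytic receptor of the family, ENSDARG00000097827 read 22.8 FPKM in testis and 6.51 FPKM in ovary, and ENSDARG00000029146 read 3.10 FPKM in testis and 4.56 FPKM in ovary. The 2 identifiers of LRP1B read 0.86 and 0.20 FPKM in testis and 0.22 and 0.14 FPKM in ovary. The 2 identifiers of LDLRAD4 read 6.17 and 1.29 FPKM in testis and 3.78 and 0.77 FPKM in ovary. These genes were chosen after their values were seen.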
